A study of Oryctolagus cuniculus with 9 samples.

Results

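The genes described here are the laminin chains, the integrin subunits and the linker proteins of the basement membrane in rabbit urethral tissue. They were chosen by symbol in the deposited count table: 11 laminin chains, 25 integrin subunits (17 alpha and 8 beta) and the linkers NID1, NID2, HSPG2 and AGRN. These are 40 of 28788 gene rows. A row had to hold 10 or more counts in at least 3 of the 9 libraries. All 40 matching rows passed, so no gene lay just outside. The nearest inside were LAMA1, whose 3 highest counts were 25, 25 and 51, and ITGAD, which had 74, 22, 17, 12 and 11 counts in its 5 highest libraries. All 40 also passed the filter of the test. A further row, matched to ITGA7 by its gene ID, carries no symbol in the table and is described apart.

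The study tested a trilayer hydrogel as a stent for mending the urethra, here in rabbit (Oryctolagus cuniculus). Polyadenylated RNA was sequenced in 9 libraries, 3 each with the codes S6, S7 and S9, numbered 2, 3 and 4 in S6 and S7 and 1, 2 and 4 in S9. The labels give tissue and code only. They do not say which strain, sex, age, treatment or time a code stands for, which code is a control, or whether each library is a separate animal. The p-values therefore measure the spread between these libraries, and no group is taken as the control. Values given in threes follow the order of the library numbers.

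Laminins are trimers of an alpha, a beta and a gamma chain that polymerise into the sheet on which epithelial, muscle, endothelial and Schwann cells rest. Nidogens and perlecan (HSPG2) tie this sheet to the collagen IV network, and agrin (AGRN) ties it to dystroglycan on the cell surface. Integrins are pairs of an alpha and a beta subunit through which cells hold the matrix. Epithelial cells anchor to laminin mainly through ITGA6 with ITGB4 and ITGA3 with ITGB1, muscle and stromal cells bind laminin, fibronectin and collagens through partners of ITGB1, and leukocytes adhere and migrate through partners of ITGB2.

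Library totals lay between 35127085 and 36832773 counts. Levels of 1 gene across libraries are given as CPM, TMM-scaled counts divided by library size, and levels of different genes are compared as FPKM, which also divides by gene length. All 10 smooth muscle markers, all 8 endothelial markers and 7 of 8 markers of basal stratified epithelium were measured above the filter. The uroplakins UPK1A, UPK2 and UPK3A were at or below 3.65 CPM in every library, while UPK1B reached 22.4 CPM in S9_1, GATA3 113 CPM in S6_2 and PSCA 249.9 CPM in S6_3. Mitochondrially encoded transcripts were scarce in S6_4, S7_3 and S9_4 (ATP6 at most 26.5 CPM there, and at least 1937 CPM in the rest), which is 1 library of each group. Among the 31 members that are not leukocyte or platelet integrins, S6_3 was the lowest of the 9 libraries for 17 and S6_4 for 9.

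By length-corrected level ITGB1 came first. The mean over the 9 libraries was 173 FPKM for ITGB1, the beta subunit shared by most matrix-binding integrins, 117 FPKM for LAMC1, the common gamma chain, 80.8 FPKM for NID1 and 73.5 FPKM for LAMB2. ITGB5, HSPG2, LAMA4, AGRN, LAMB1, ITGB2, ITGA5 and LAMA5 followed, with 50.7 to 25.7 FPKM. Epithelial members were intermediate, with 18.4 FPKM for ITGA6, 17.8 FPKM for ITGA3 and 17.3 FPKM for ITGB4. At the low end were ITGB6, ITGAD and LAMA1, with 0.561, 0.120 and 0.0373 FPKM. ITGB2 ranged from 7.58 FPKM in S9_1 to 122 FPKM in S6_3. The gene length behind ITGA9 was 1954 bases, the shortest of all members, so its level of 9.52 FPKM rests on a short gene model.

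S9 and S6 differed in opposite directions for matrix chains and leukocyte integrins. By edgeR's quasi-likelihood test with Benjamini-Hochberg adjustment over 17102 genes, 10 of 40 members differed at an adjusted p below 0.05, against 12.4% of all genes. LAMA2, LAMB2, LAMB3, LAMC1, HSPG2 and ITGA8 were higher in S9 (6 members, where 6.02% of all genes were called higher). ITGB2, ITGAL, ITGAM and ITGAX were lower (4 members, against 6.34% of all genes). The S9 and S6 libraries did not overlap for 21 members (52.5%), against 35.5% of all genes. In 15 of them S9 was higher and in 6 lower, where the shares of all genes were 18.6% and 17.0%. The median log2 fold change was 1.04 over the 11 laminin chains, 0.76 over the 4 linkers, 0.06 over the 6 epithelial integrins, 0.82 over the 10 muscle and mesenchymal integrins and -2.13 over the 9 leukocyte and platelet integrins, where the median over all genes was -0.01.

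**Figure D1:**
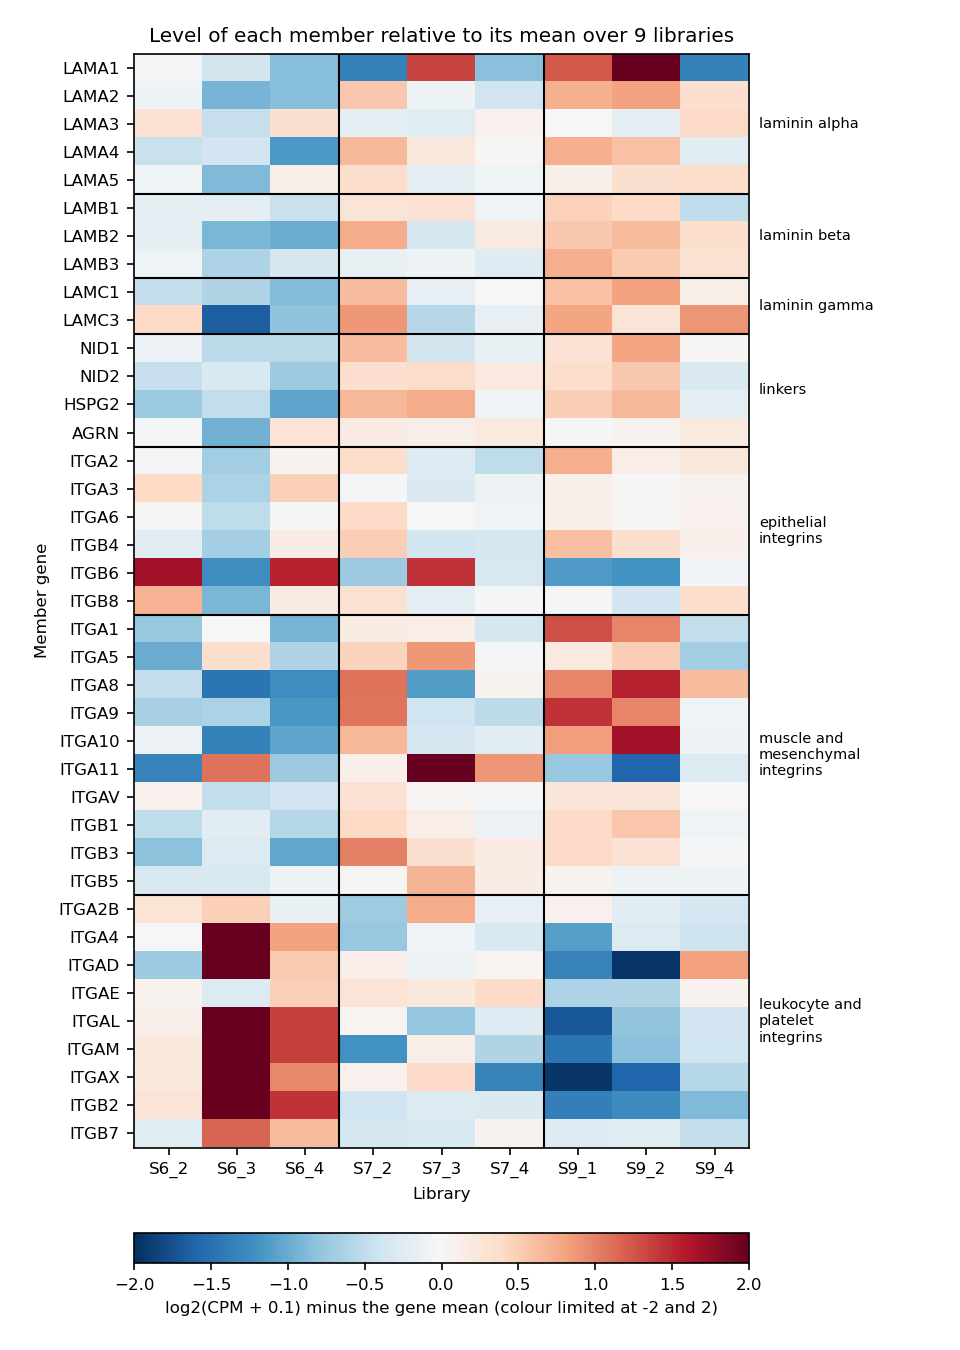
Level of 39 members (rows, by role) in each library (columns), as log2(CPM + 0.1) minus the gene's mean over the 9 libraries. The leukocyte rows other than ITGA2B, ITGAD and ITGAE are reddest in S6_3 and S6_4. Most laminin and muscle integrin rows are blue in S6 and red in S9.

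**Figure D2:**
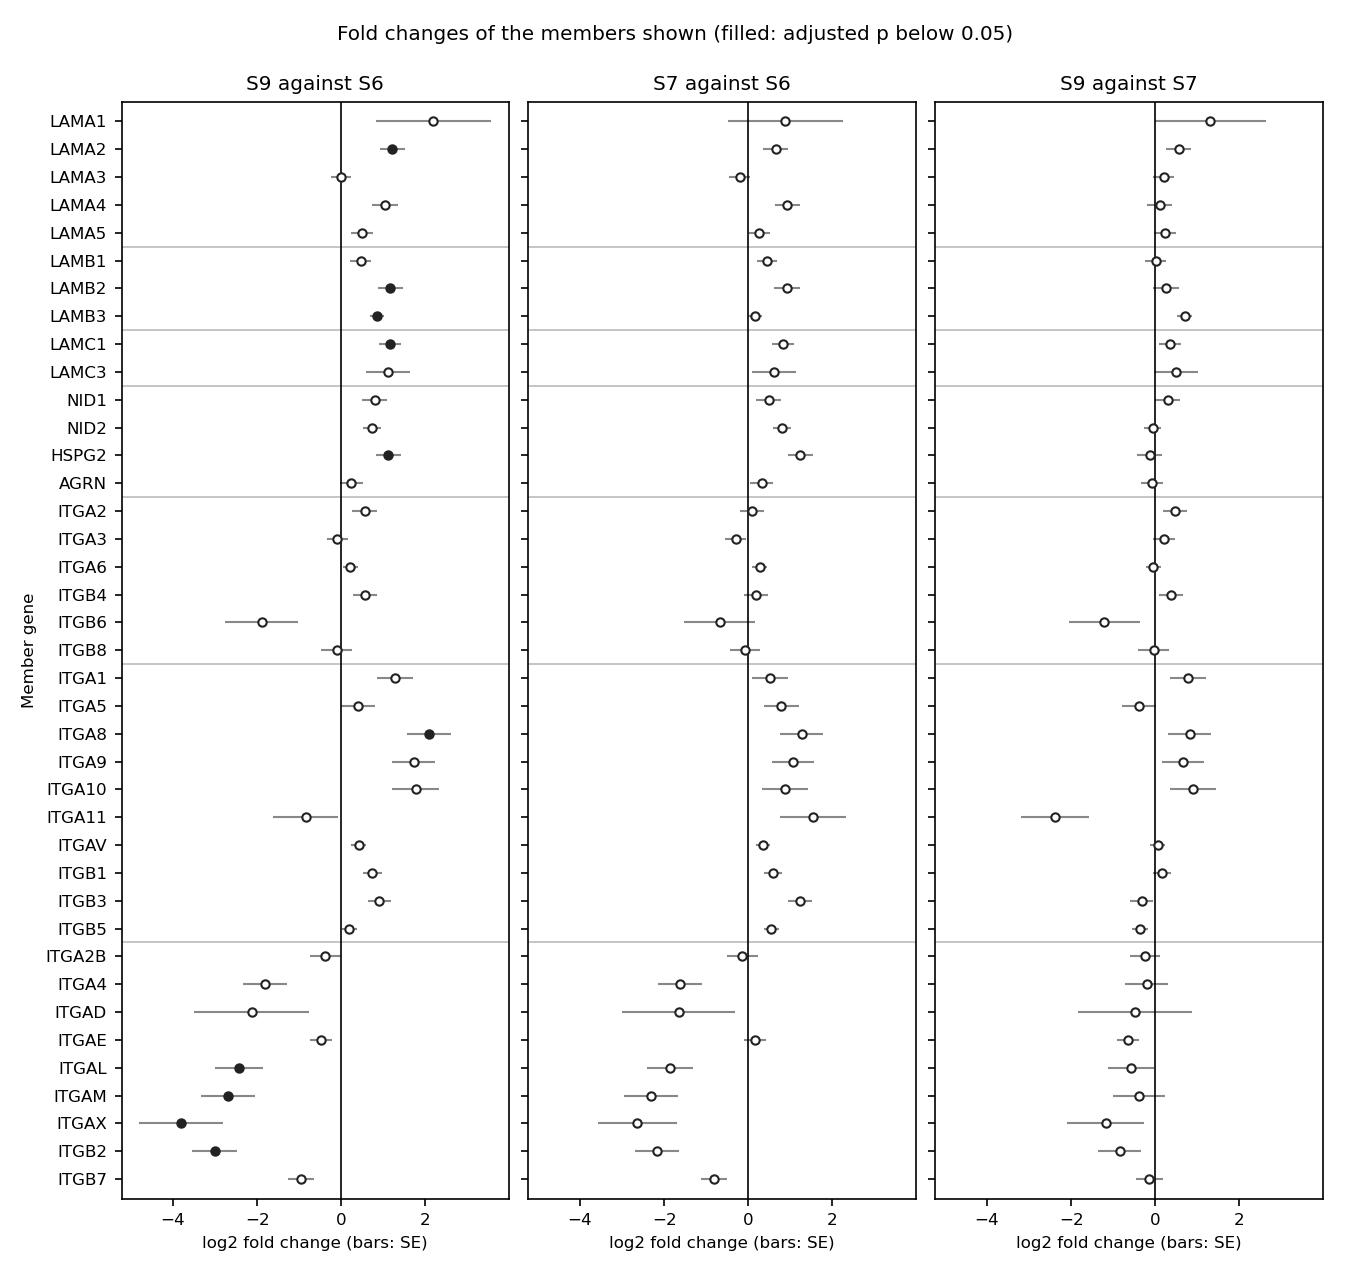
Log2 fold change of 39 members (points) with its standard error (bars) in the 3 comparisons, where filled points passed an adjusted p of 0.05. The 10 filled points lie in the comparison of S9 with S6, and the other panels hold none.

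These calls depended on single libraries, as did the calls over all genes. By edgeR the number of members called between S9 and S6 was 0 without S6_4, S9_1 or S9_2, where 0.508%, 0.0% and 0.0228% of all genes were called. It was 2 without S6_3 (ITGB2 and LAMB3, with 5.85% of all genes), 5 without S7_4 (6.81%), 10 without S7_2 (11.6%) or S7_3 (11.8%), 13 without S6_2 (11.7%) and 15 without S9_4 (11.1%). It was also 0 in the 6 libraries with high mitochondrial counts (0.0406%). The number with an unadjusted p below 0.05 moved less, from 18 to 25 of 40 with a library left out, 23 in the 6 libraries and 21 with all 9 libraries, where 31.2% of all genes had one. DESeq2 called 19 members, against 24.0% of all genes, and limma-voom 21, against 23.7%. Both added LAMA4, NID2, ITGA1, ITGA4, ITGA9, ITGA10, ITGB1 and ITGB3 to the 10. DESeq2 alone added ITGB7, and limma-voom alone NID1, ITGAE and ITGAV. Over the alternatives the median log2 fold change of the leukocyte and platelet integrins ran from -2.85 to -0.93, and without S6_3 it was -1.01. That of the laminin chains ran from 0.76 to 1.17, of the linkers from 0.55 to 0.96, of the muscle and mesenchymal integrins from 0.70 to 1.03 and of the epithelial integrins from -0.14 to 0.30.

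LAMC1, LAMA2 and LAMB2, chains of muscle and vessel walls, were higher in S9 than in S6. LAMC1, the gamma chain of most laminins, was at 509.7, 467 and 387 CPM in S6, 1083, 629 and 701 in S7, and 1056, 1234 and 770.4 in S9. All S9 and all S7 libraries lay above all S6 libraries. Between S9 and S6 it rose to 1020.0 ± 234 from 454 ± 62.4 CPM (mean ± SD, n = 3, log2 fold change 1.17 ± 0.26 SE, adjusted p by edgeR = 0.0295). LAMA2, the alpha chain of muscle and Schwann cell basement membranes, was at 95.1, 53.5 and 56.7 CPM in S6, 149, 95.7 and 77.6 in S7, and 167, 178 and 129 in S9. S9 lay above S6, with S7 between and overlapping both (log2 fold change 1.21 ± 0.30 SE, adjusted p by edgeR = 0.0363 for S9 against S6). LAMB2, the beta chain of mature muscle, vessel and nerve basement membranes, was at 331, 200.4 and 191 CPM in S6, 633, 301 and 429.6 in S7, and 549, 590.4 and 487 in S9. S9 again lay above S6 (log2 fold change 1.17 ± 0.30 SE, adjusted p by edgeR = 0.0412), and S7_3 fell within the range of S6. In the 6 libraries with high mitochondrial counts the log2 fold changes of LAMC1, LAMA2 and LAMB2 were 1.23, 1.21 and 1.10, with edgeR adjusted p of 0.0828, 0.14 and 0.12.

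LAMA4, the alpha chain typical of endothelium and muscle, was at 161, 168 and 98.8 CPM in S6, 342, 252 and 221 in S7, and 360.5, 329 and 188 in S9. Both S7 and S9 lay above S6, but the difference of S9 from S6 was not called by edgeR (log2 fold change 1.04 ± 0.30 SE, adjusted p by edgeR = 0.0552). LAMB1, a beta chain widespread in development, was at 178, 179 and 149.6 CPM in S6, 246, 250.4 and 196 in S7, and 282, 269.7 and 145 in S9. S9_4 was as low as S6 while S9_1 and S9_2 were the highest of all, so S9 overlapped S6, while all S7 libraries lay above S6 (for S9 against S6, log2 fold change 0.46 ± 0.25 SE, adjusted p by edgeR = 0.239). LAMA5, the main alpha chain of adult epithelial and vessel basement membranes, was at 253, 146 and 290.4 CPM in S6, 342, 235 and 252 in S7, and 288, 336 and 346 in S9, with S6_3 the lowest (log2 fold change 0.49 ± 0.26 SE, adjusted p by edgeR = 0.231). LAMC3, a gamma chain of low abundance in most tissues, was at 81.7, 19.7 and 35.5 CPM in S6, 113, 41.5 and 55.0 in S7, and 107, 74.2 and 114 in S9. Its spread within S6 was wide, and it was not called (log2 fold change 1.11 ± 0.53 SE, adjusted p by edgeR = 0.189). LAMA1, a mainly embryonic chain, stayed at or below 1.40 CPM and was above 0.5 CPM in S7_3, S9_1 and S9_2 alone.

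**Figure D3:**
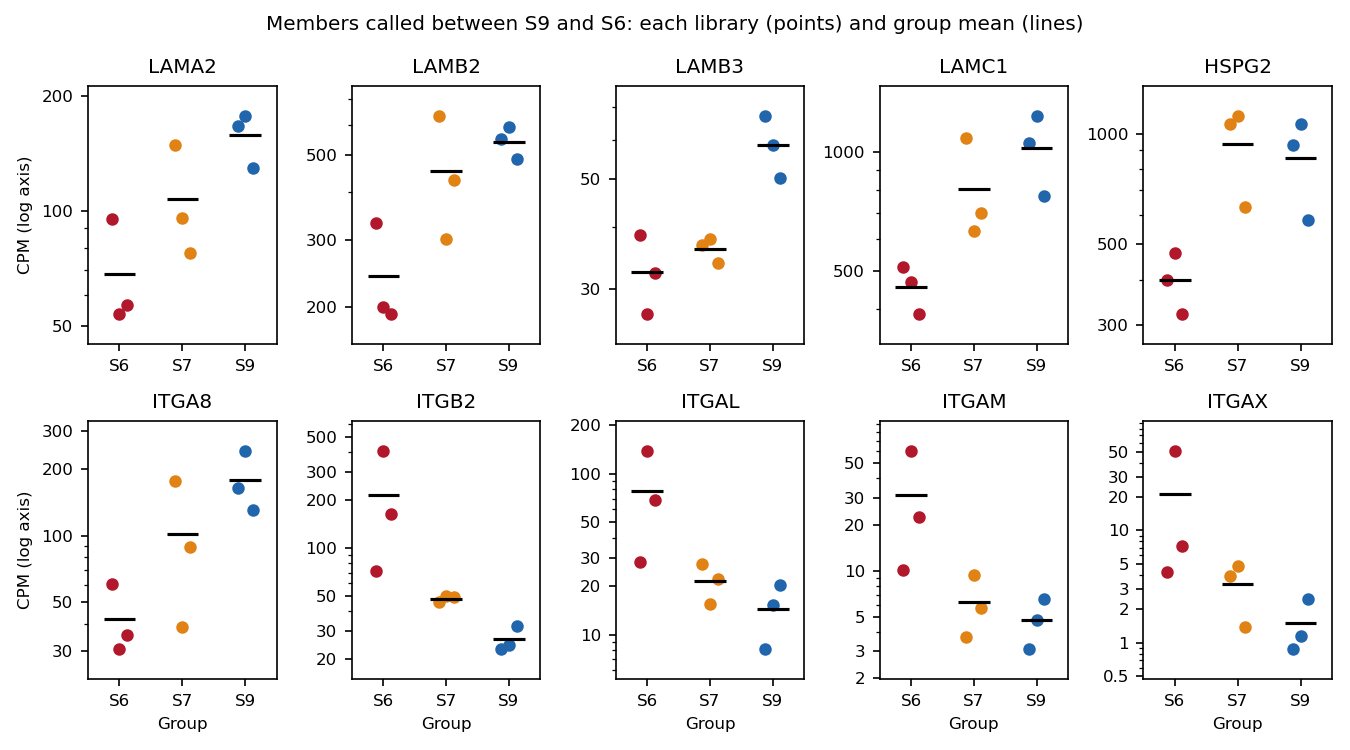
CPM of the 10 members called between S9 and S6 in each library (points, log axis), with group means (lines), in S6, S7 and S9. For LAMB3 the S7 libraries sit beside S6, while for HSPG2 and the leukocyte integrins ITGAL and ITGAM they sit near S9.

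Summed smooth muscle and Schwann cell markers lay higher in every S9 library than in any S6 library, while endothelial sums overlapped. The summed level of the 10 smooth muscle markers was 2163 to 3829 CPM in S6, 3570 to 11674 CPM in S7 and 7046 to 13419 CPM in S9. Of these 10, 8 were called higher in S9 than in S6, where 6.02% of all genes were. The 5 Schwann cell markers summed to 41.4 to 170 CPM in S6, 59.2 to 241 CPM in S7 and 227 to 318 CPM in S9, with 2 of 5 called higher. The 8 endothelial markers summed to 1270 to 1519 CPM in S6, 986 to 2360 CPM in S7 and 1143 to 2553 CPM in S9, with 3 of 8 called higher. Their part in the laminin differences was not tested. In bulk tissue, more cells of a type and more RNA per cell cannot be told apart. Set against the endothelial gene PECAM1 within each library, LAMA4 had an FPKM ratio of 0.466, 0.368 and 0.285 in S6, 0.598, 0.707 and 0.543 in S7, and 0.929, 0.604 and 0.590 in S9. The ratio was lowest in the 3 S6 libraries, and the 3 groups differed by an exact permutation test (p = 0.0214), but not after adjustment over 10 ratios (adjusted p = 0.214). Without S6_4, S7_2, S7_4 or S9_1 this exact p was 0.0536, 0.05, 0.0536 and 0.0679. The ratio depends on the marker chosen. PECAM1 averaged 219 CPM in S6 and 238 CPM in S9, while log2 fold changes of the 8 endothelial markers ran from 0.12 to 2.02. Ratios of LAMA4 to the other endothelial markers were not tested.

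LAMA3 and LAMB3 are chains of the laminin that holds basal epithelial cells at hemidesmosomes. LAMB3 was called between S9 and S6, and LAMA3 was not. LAMB3 was at 38.6, 26.6 and 32.2 CPM in S6, 36.8, 37.9 and 33.9 in S7, and 67.1, 58.7 and 50.3 in S9. All S9 libraries lay above those of both other groups (log2 fold change 0.85 ± 0.17 SE, adjusted p by edgeR = 0.0235 against S6). Against S7 the log2 fold change was 0.70 (SE 0.17), with an unadjusted p of 0.00268 and an edgeR adjusted p of 0.538. Its partner LAMA3 was at 33.6, 19.7 and 33.8 CPM in S6, 23.6, 23.0 and 28.8 in S7, and 27.0, 23.9 and 35.5 in S9, with overlapping groups (edgeR adjusted p = 0.984 for S9 against S6).

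The basal epithelial markers summed to 1216 to 1326 CPM in S6, 1558 to 2234 CPM in S7 and 1643 to 2316 CPM in S9. The mean of KRT15 was 433 ± 117 CPM in S6 and 1293 ± 77.8 CPM in S9 (mean ± SD, n = 3), while 5 of the 7 measured markers had a log2 fold change below 0, with a median of -0.30 over the list. KRT15 was called higher and CDH3 lower in S9 than in S6, and their part in the LAMB3 difference was not tested. The FPKM ratio of LAMB3 to the basal keratin KRT5 was 0.165, 0.0850 and 0.119 in S6, 0.177, 0.0604 and 0.127 in S7, and 0.334, 0.417 and 0.155 in S9. It was highest in S9_1 and S9_2, while S9_4 lay within the range of the other groups (exact permutation p = 0.139 over the 3 groups).

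As shares of FPKM within a chain class, LAMA4 and LAMA5 together made up most of the alpha chains in every library. LAMA4 took 32.1% to 58.1% and LAMA5 24.9% to 51.3%, each at an extreme in an S6 library or S9_1. LAMA2 took 14.8%, 10.8% and 10.7% in S6, 13.8%, 12.4% and 10.8% in S7, and 15.4%, 16.4% and 16.0% in S9, so its share was highest in the S9 libraries. LAMB2 held 59.8%, 49.1% and 50.6% of beta chain FPKM in S6, 68.9%, 50.8% and 64.8% in S7, and 60.4%, 63.6% and 70.3% in S9. The FPKM ratio of LAMB2 to LAMB1 was thus above 1 in all libraries, from 1.16 in S6_3 to 3.49 in S9_4 (exact permutation p = 0.186 over the 3 groups).

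**Figure D4:**
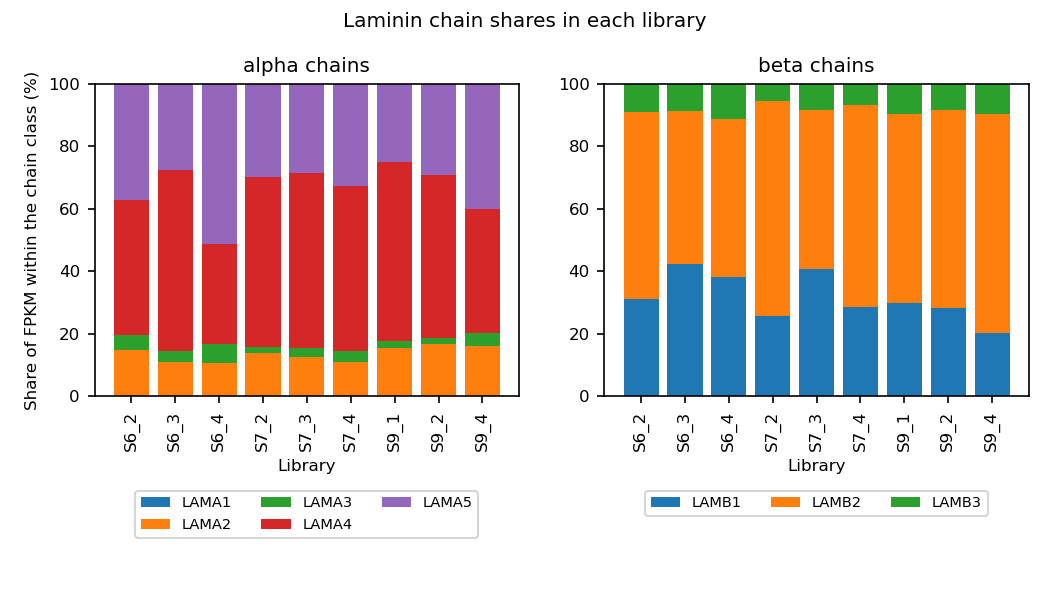
Share of FPKM (%) that each laminin chain took within its class, alpha or beta, in each of the 9 libraries (stacked bars). LAMA2 took 15.4% to 16.4% of alpha chain FPKM in the S9 libraries and 10.7% to 14.8% elsewhere.

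Of the 4 linkers HSPG2 alone was called between S9 and S6 by edgeR, and NID1, NID2 and HSPG2 had S9 libraries that lay above those of S6. HSPG2 encodes perlecan, a heparan sulfate proteoglycan that binds growth factors in the basement membrane. It was at 398, 474 and 321 CPM in S6, 1061, 1119 and 632 in S7, and 934, 1060.2 and 582 in S9. Every S7 and S9 library lay above every S6 library (log2 fold change 1.11 ± 0.30 SE, adjusted p by edgeR = 0.0443 for S9 against S6). With a correction for gene length, which is 14714 bases for HSPG2 and the longest of the members, the log2 fold change was 0.71 (edgeR adjusted p = 0.139), and the call of LAMA2 was lost too (0.92 and 0.0519).

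NID2 was at 64.7, 71.5 and 53.4 CPM in S6, 112, 115 and 101 in S7, and 113, 129 and 72.6 in S9, with the same separation and no call by edgeR (log2 fold change 0.73 ± 0.21 SE, adjusted p by edgeR = 0.0544; adjusted p = 0.0153 by DESeq2 and 0.0125 by limma-voom). NID1, its more abundant homologue, was at 336, 250.4 and 252 CPM in S6, 562, 284 and 329 in S7, and 447, 632 and 370.1 in S9. S9 lay above S6, and S7_3 and S7_4 lay within the range of S6 (log2 fold change 0.79 ± 0.30 SE, adjusted p by edgeR = 0.111; adjusted p = 0.0351 by limma-voom). AGRN clusters receptors on muscle beneath nerve endings and is also made by epithelium. It was at 254, 133 and 313 CPM in S6, 290.4, 282 and 299 in S7, and 256, 272 and 299 in S9. Apart from S6_3 its libraries lay within 254 to 313 CPM, and no difference passed the test (edgeR adjusted p = 0.585 for S9 against S6).

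By edgeR, DESeq2 and limma-voom, none of the 6 epithelial integrins was called between S9 and S6, against 12.4%, 24.0% and 23.7% of all genes. None had an unadjusted edgeR p below 0.05, against 31.2% of all genes. ITGA6, which pairs with ITGB4 in hemidesmosomes, was at 104, 72.2 and 102 CPM in S6, 135, 103 and 96.9 in S7, and 110.0, 104 and 109 in S9. ITGB4 was at 83.6, 60.2 and 107 CPM in S6, 136, 74.1 and 75.7 in S7, and 146, 121 and 103 in S9. The S9 libraries lay just above S6 for ITGA6 (edgeR adjusted p = 0.448) and overlapped S6 for ITGB4 (log2 fold change 0.56 ± 0.29 SE, adjusted p by edgeR = 0.221), and the FPKM ratio of ITGB4 to ITGA6 stayed between 0.697 and 1.29 over the 9 libraries (exact permutation p = 0.154).

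ITGA3, a laminin receptor of basal epithelium, was at 94.5, 46.4 and 101 CPM in S6, 69.7, 59.0 and 67.2 in S7, and 77.4, 72.9 and 75.7 in S9. The S7 and S9 libraries were tightly grouped and fell inside the range of S6, and S9 lay above S7 (edgeR adjusted p = 0.793). ITGB8, which binds latent TGF-beta with ITGAV, had overlapping groups with 56.2 ± 28.3, 53.4 ± 9.14 and 52.2 ± 13.5 CPM in S6, S7 and S9 (mean ± SD, n = 3). ITGA2, a collagen and laminin receptor, was at 27.1 ± 7.20, 28.8 ± 9.05 and 39.8 ± 9.40 CPM (log2 fold change 0.55 ± 0.29 SE, adjusted p by edgeR = 0.225 for S9 against S6), and no S9 library lay as low as any of S6. ITGB6, an activator of latent TGF-beta in injured epithelium, was at 7.07, 0.848 and 6.43 CPM in S6, 1.25, 6.02 and 1.69 in S7, and 0.926, 0.876 and 2.06 in S9. Its level was above 6 CPM in S6_2, S6_4 and S7_3 and at or below 2.06 CPM in the other 6, so the high libraries belong to different groups (log2 fold change -1.89 ± 0.86 SE, adjusted p by edgeR = 0.174).

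Of the 10 integrins of muscle and stroma, 9 had a log2 fold change above 0 between S9 and S6, and ITGA8 was called by edgeR. ITGA8, a receptor for nephronectin and fibronectin on smooth muscle and related cells, was at 60.3, 30.6 and 35.6 CPM in S6, 178, 38.6 and 88.5 in S7, and 165, 243 and 131 in S9. S9 lay above S6, and S7 ran from the level of S6 in S7_3 to that of S9 in S7_2 (log2 fold change 2.09 ± 0.52 SE, adjusted p by edgeR = 0.0375). The smooth muscle myosin MYH11 was at 1357, 595 and 615 CPM in S6, 4366, 852 and 1887 in S7, and 4594, 5609 and 2886 in S9. Within each library the FPKM ratio of ITGA8 to MYH11 was 0.0465, 0.0538 and 0.0606 in S6, 0.0427, 0.0474 and 0.0491 in S7, and 0.0376, 0.0454 and 0.0474 in S9. Its highest value was 1.61 times its lowest, while ITGA8 itself spanned 8.42 times and MYH11 9.99 times. No difference of the ratio between the 3 groups passed an exact permutation test (p = 0.157), though without S6_2 the exact p was 0.0357.

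**Figure D5:**
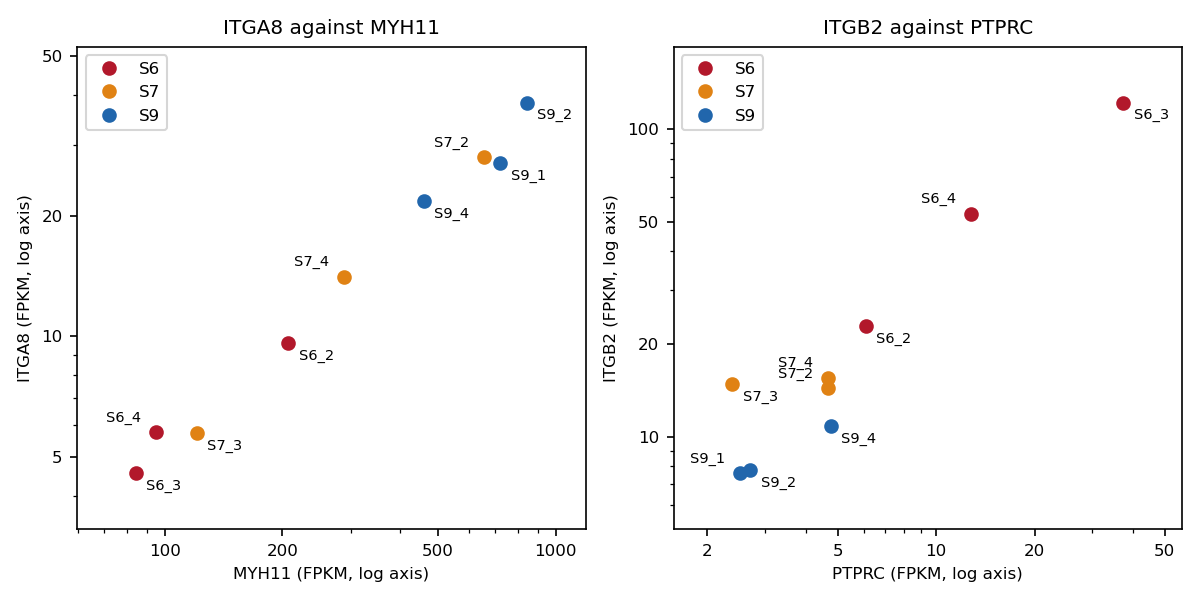
FPKM of ITGA8 against the smooth muscle gene MYH11, and of ITGB2 against the leukocyte gene PTPRC, in each library (points, both axes log). ITGA8 lies along a line from S6_3 to S9_2, and ITGB2 runs from S9_1 to S6_3. For ITGB2, S7_3 is set apart by a level of 14.8 FPKM at a PTPRC level of 2.38 FPKM.

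ITGB1 was at 439.9, 534 and 419 CPM in S6, 822, 685 and 577 in S7, and 815, 918 and 589.5 in S9. S7_4 and S9_4 came nearest to S6, no S6 library reached them, and the difference of S9 from S6 was just short of a call (log2 fold change 0.74 ± 0.22 SE, adjusted p by edgeR = 0.057). ITGB3, the beta subunit of the vitronectin receptor of vessels and platelets, was at 11.1, 16.1 and 9.52 CPM in S6, 39.3, 24.5 and 21.9 in S7, and 25.6, 24.1 and 19.1 in S9. S7 and S9 both lay above S6 (log2 fold change 0.90 ± 0.28 SE, adjusted p by edgeR = 0.0647 for S9). ITGA5, the main fibronectin receptor subunit, was at 57.4, 144 and 75.3 CPM in S6, 155, 209 and 112 in S7, and 132, 161 and 70.3 in S9. It overlapped in all 3 comparisons, with S6_3 and S7_3 the highest of their groups (edgeR adjusted p = 0.551).

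ITGA9, a receptor for tenascin and VCAM1, was at 9.56, 9.78 and 6.73 CPM in S6, 32.3, 11.5 and 10.5 in S7, and 41.5, 30.0 and 14.3 in S9 (log2 fold change 1.72 ± 0.51 SE, adjusted p by edgeR = 0.0576). The collagen receptor subunits ITGA1 and ITGA10 averaged 14.3 ± 5.16 and 1.99 ± 0.987 CPM in S6 and 34.9 ± 18.3 and 6.79 ± 4.01 CPM in S9 (mean ± SD, n = 3). They had log2 fold changes of 1.28 (edgeR adjusted p = 0.0822) and 1.77 (0.0688) between S9 and S6. For ITGA1 and ITGA10 the highest libraries were S9_1 and S9_2, and for ITGA9 S7_2 was as high as S9_2. S9_4 was the lowest S9 library for all 3 genes. ITGAV, which pairs with several beta subunits, and ITGB5 lay at 54.9 ± 12.4 and 143 ± 12.6 CPM in S6, 70.0 ± 8.41 and 209.9 ± 53.8 CPM in S7, and 73.0 ± 6.60 and 164 ± 11.4 CPM in S9. Neither was called between S9 and S6 (edgeR adjusted p = 0.152 and 0.517).

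ITGA11, a collagen receptor of fibroblasts, was at 5.36, 29.0 and 8.23 CPM in S6, 14.6, 84.0 and 25.2 in S7, and 8.02, 4.46 and 11.3 in S9. It was the member of these 10 with a lower mean in S9 than in S6, and S7_3 stood far above all other libraries. In S7_3 COL1A1, the fibrillar collagen chain, was also the highest of the 9 at 35155 CPM, against 7618 to 17579 CPM elsewhere. Other fibroblast markers differed in direction there. DCN and MFAP5 were the lowest of S7, at 2640.2 and 319 CPM, while PDGFRA was the highest of S7, at 197.1 CPM against 196.7 in S7_2. The 6 fibroblast markers, COL1A1 among them, summed to 42839 CPM in S7_3, the highest of the 9. The part of these genes in the level of ITGA11 was not tested. No S9 library reached the lowest S7 library for ITGA11, with a log2 fold change of -2.38 (SE 0.81, unadjusted p = 0.0163, edgeR adjusted p = 0.538), and of -1.32 without S7_3.

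Of the 9 leukocyte and platelet integrins edgeR called 4 lower in S9 than in S6, against 6.34% of all genes. They were ITGB2 and its partners ITGAL, ITGAM and ITGAX. DESeq2 also called ITGA4 and ITGB7, and limma-voom ITGA4 and ITGAE. Every one of the 9 had a log2 fold change below 0. ITGB2, the beta subunit of leukocyte adhesion receptors, was at 71.6, 409 and 164 CPM in S6, 45.6, 49.7 and 48.8 in S7, and 23.0, 24.6 and 32.5 in S9. The 3 groups did not overlap at all, in the order S6, S7, S9 (log2 fold change -3.01 ± 0.54 SE, adjusted p by edgeR = 0.0196 for S9 against S6). In the F test of the 3 groups together by edgeR, LAMB3 was just short of a call (adjusted p = 0.0505). ITGB2 alone passed it (adjusted p = 0.0417), which is 1 of 40 members, against 2.43% of all genes. Its alpha partner ITGAL, which carries lymphocytes and other leukocytes onto ICAM proteins, was at 28.3, 139 and 68.2 CPM in S6, 27.6, 15.4 and 22.0 in S7, and 8.10, 15.2 and 20.2 in S9 (log2 fold change -2.44 ± 0.56 SE, adjusted p by edgeR = 0.0308). ITGAM, the partner in neutrophils and macrophages, was at 10.19, 60.6 and 22.5 CPM in S6, 3.71, 9.41 and 5.72 in S7, and 3.10, 4.82 and 6.54 in S9 (log2 fold change -2.69 ± 0.65 SE, adjusted p by edgeR = 0.0344). ITGAX, typical of dendritic cells and macrophages, was at 4.25, 51.3 and 7.21 CPM in S6, 3.90, 4.79 and 1.39 in S7, and 0.873, 1.15 and 2.44 in S9 (log2 fold change -3.81 ± 0.99 SE, adjusted p by edgeR = 0.0415). For ITGAL and ITGAM both S7 and S9 lay below S6, and S6_3 was the highest library for all 4 genes. Without S6_3 the log2 fold changes were -2.13 for ITGB2, -1.72 for ITGAL, -1.75 for ITGAM and -1.93 for ITGAX, and ITGB2 alone of them was called (edgeR adjusted p = 0.0223).

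ITGAD, the scarcest partner of ITGB2, was at 2.24 CPM in S6_3 and at or below 0.582 CPM elsewhere, with 0 counts in S9_2. In that library a count of 0 allows up to 3 counts. ITGA4, which brings leukocytes to VCAM1 on vessels, was at 6.18, 27.3 and 10.99 CPM in S6, 3.66, 5.84 and 5.01 in S7, and 2.86, 5.15 and 4.63 in S9. S7 and S9 lay below S6, just short of a call (log2 fold change -1.81 ± 0.52 SE, adjusted p by edgeR = 0.0538, and a log2 fold change of -1.01 without S6_3). ITGB7, its partner in gut-homing lymphocytes, was at 31.4 ± 14.3, 17.8 ± 3.08 and 16.2 ± 1.51 CPM (log2 fold change -0.96 ± 0.32 SE, adjusted p by edgeR = 0.0773). ITGAE, the subunit with which intraepithelial lymphocytes bind E-cadherin, was at 16.3, 12.8 and 21.6 CPM in S6, 18.6, 18.0 and 20.2 in S7, and 10.004, 10.11 and 16.2 in S9. It was not highest in S6_3, unlike ITGB2, ITGAL, ITGAM, ITGAX, ITGAD, ITGA4 and ITGB7, and S9 lay below S7 (log2 fold change -0.65, SE 0.26, unadjusted p = 0.033, edgeR adjusted p = 0.538).

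ITGA2B, the platelet and megakaryocyte subunit, lay between 6.96 and 19.3 CPM with overlapping groups. Of 5 platelet markers GP1BA was at 0 in every library, GP9 was under the count filter, and PPBP was at or below 5.03 CPM. The remaining markers, PF4 and GP6, had no row under these symbols and were not analysed.

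General leukocyte markers moved with these integrins. The 5 of them, PTPRC, LCP1, CORO1A, LAPTM5 and CYBB, were all called lower in S9 than in S6, where 6.34% of all genes were. They summed to 391 to 2029 CPM in S6, 279 to 337 CPM in S7 and 147 to 293 CPM in S9. All 6 neutrophil markers were called lower as well, with sums of 8323 to 15754 CPM in S6 and 436 to 758 CPM in S9. S100A8, S100A9 and S100A12 made up most of these sums, while CSF3R, CXCR2 and MMP9 were each at or below 38.03 CPM throughout. Also called lower were 3 of 6 macrophage markers (521 to 1258 and 193 to 365 CPM) and 5 of 6 T and B cell markers (41.4 to 124 and 17.1 to 24.0 CPM). The part of all these markers in the integrin differences was not tested. The FPKM ratio of ITGB2 to PTPRC was 3.76, 3.26 and 4.14 in S6, 3.08, 6.21 and 3.33 in S7, and 3.02, 2.87 and 2.27 in S9. Its range was 2.74 times, while ITGB2 spanned 16.1 times and PTPRC 15.7 times (exact permutation p = 0.186, and 0.0286 without S7_3). The ratio of ITGAM to PTPRC was 0.316 to 0.373 in S6 and 0.265 to 0.367 in S9, and in S7 it was 0.164, 0.768 and 0.255, so that S7_3 again was high (exact permutation p = 0.918, and 0.0214 without S7_3).

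Between S7 and S6 edgeR called none of the 40 members, where 0.111% of all genes were called (0.0468% higher and 0.0643% lower), and 15 members had an unadjusted p below 0.05, against 17.1% of all genes. DESeq2 called 11 (HSPG2, LAMA4, LAMB2, LAMC1, NID2, ITGB3, ITGA4, ITGAL, ITGAM, ITGAX and ITGB2), against 8.29% of all genes, and limma-voom and limma-trend none. The groups did not overlap for 13 members (32.5%), against 21.2% of all genes. S7 was higher for 9 of them and lower for 4, where the shares of all genes were 10.7% and 10.4%. The smallest adjusted p was that of ITGB3 (log2 fold change 1.22 ± 0.28 SE, adjusted p by edgeR = 0.106), followed by ITGB2 (log2 fold change -2.16 ± 0.52 SE, adjusted p by edgeR = 0.117) and HSPG2 (log2 fold change 1.24 ± 0.30 SE, adjusted p by edgeR = 0.119). Log2 fold changes were 0.79 for NID2, 0.93 for LAMA4, 0.82 for LAMC1, -1.86 for ITGAL and -2.31 for ITGAM. Without S6_3 those of ITGB2, ITGAL and ITGAM were -1.29, -1.15 and -1.38. ITGB5, which binds vitronectin, lay apart in this comparison and not between S9 and S6, with a log2 fold change of 0.55 (edgeR adjusted p = 0.184).

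Between S9 and S7 edgeR called no member and no gene of the whole table (0.0%). Of the 40 members 3 had an unadjusted p below 0.05, against 9.21% of all genes, and DESeq2 and limma-voom called no member, where DESeq2 called 0.719% of all genes. The groups did not overlap for 5 members (12.5%), against 17.2% of all genes. S9 lay above S7 for LAMB3 and ITGA3 (8.36% of all genes) and below it for ITGB2, ITGAE and ITGA11 (8.81%). For ITGB2 the change was -0.85 ± 0.50 SE on the log2 scale (adjusted p by edgeR = 0.603). Comparisons that share a group share its libraries, so S7 against S6 and S9 against S6 are not independent of each other.

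Among other genes of cell and matrix anchorage, calls between S9 and S6 were most frequent in the dystroglycan list. Of 11 genes of the dystroglycan complex, the other laminin receptor of muscle, 6 were called higher (54.5%, against 6.02% of all genes called higher). In all 11 the S9 libraries lay above S6, as they did for 18.6% of all genes, with a median log2 fold change of 1.38. They include SSPN, sarcospan, at 50.1 ± 9.60 CPM in S9 against 19.3 ± 3.77 CPM in S6 (mean ± SD, n = 3, log2 fold change 1.38 ± 0.19 SE, adjusted p by edgeR = 0.0132), SGCD, a sarcoglycan, at 32.2 ± 5.64 against 7.55 ± 2.41 CPM, and SGCE at 74.3 ± 17.4 against 30.3 ± 7.58 CPM. DMD, UTRN and DTNA were called too. The receptor core DAG1 was not called, at 293 ± 16.3 against 193 ± 46.4 CPM (edgeR adjusted p = 0.11).

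Of 16 integrin adaptors 6 were called higher and 2 lower in S9 than in S6, where 6.02% and 6.34% of all genes were. The focal adhesion proteins TNS1, at 667 ± 159.6 against 182 ± 14.5 CPM (log2 fold change 1.88 ± 0.26 SE, adjusted p by edgeR = 0.0138), LIMS2 and VCL were higher, beside the kindlin FERMT2 at 163 ± 45.4 against 53.5 ± 13.5 CPM (log2 fold change 1.61 ± 0.27 SE, adjusted p by edgeR = 0.019), ILK and PARVA. FERMT3, the kindlin of blood cells, was lower at 12.8 ± 3.71 against 70.3 ± 65.1 CPM (log2 fold change -2.46 ± 0.61 SE, adjusted p by edgeR = 0.0373), as was the leukocyte parvin PARVG at 1.18 ± 0.177 against 9.49 ± 4.60 CPM (log2 fold change -3.005 ± 0.54 SE, adjusted p by edgeR = 0.0196). FERMT1, the epithelial kindlin, was not called (34.7 ± 5.34 against 29.6 ± 14.1 CPM).

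Of 8 anchoring and hemidesmosome partners, DST, FRAS1 and FREM1 were called higher in S9 than in S6, against 6.02% of all genes. DST, which links hemidesmosomes to keratin and has other forms in muscle and nerve, averaged 388 ± 117 CPM in S9 against 160.4 ± 46.1 CPM in S6, with an adjusted p by edgeR of 0.0267. Calls in the lists of other anchorage genes are given without the correction for gene length, which is 32750 bases for DST and 16362 for FRAS1. COL17A1, the hemidesmosome collagen, was at 75.2 ± 29.4 against 72.6 ± 34.1 CPM and was not called. Of 11 other laminin receptors and related proteins, NTN1, SMOC2 and MCAM were called higher, with NTN1, a secreted protein related to laminins, at 126 ± 14.2 against 43.3 ± 0.968 CPM (log2 fold change 1.54 ± 0.29 SE, adjusted p by edgeR = 0.0211).

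None of the 8 basement membrane collagens was called by edgeR between S9 and S6. Of the 8, 4 had an unadjusted p below 0.05, against 31.2% of all genes. DESeq2 called 4 (COL4A3, COL4A5, COL4A6 and COL15A1) and limma-voom 3 of them, without COL4A3. COL4A1, of the common collagen IV network, was at 532 ± 209.8 against 615 ± 221 CPM (edgeR adjusted p = 0.749), and COL4A6, of the collagen IV form found around smooth muscle, at 388 ± 235 against 84.9 ± 60.6 CPM (edgeR adjusted p = 0.0744). Over the 54 genes of the 5 lists edgeR called 20 between S9 and S6, against 12.4% of all genes. It called 0 between S9 and S7, where 10 had an unadjusted p below 0.05 (9.21% of all genes) and DESeq2 and limma-voom also called 0. Between S7 and S6 edgeR called 0, with 25 at an unadjusted p below 0.05 (17.1% of all genes), while DESeq2 called 15 (8.29%) and limma-voom 3 (1.79%).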

How the data were processed

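The authors deposited raw read counts per gene and FPKM values for 9 libraries. Per the submitters' processing notes fastp, HISAT2 and HTSeq were used. No version is named, and the genome build, annotation and strand setting were not given in the sources used here. Counts, column totals and 1 length per gene gave back the deposited FPKM for 172954 of 172961 values above 0 (relative tolerance 1e-06), so FPKM served for gene lengths, comparisons between genes and ratios. Columns were mapped by name, and no column was left over. Of 12867 rows with a LOC number 515 received a symbol through gene IDs of the RefSeq table for assembly mOryCun1.1, ITGA7 among them. No coordinates or sequences were used.

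Counts were filtered with filterByExpr (minimum count 10, minimum total 15), which left 17102 genes, scaled by TMM and fitted in 1 model of 3 groups with edgeR 4.0.16 (R 4.3.3, robust quasi-likelihood, 6 residual degrees of freedom). The step was tested on simulated data. A gene was called at an adjusted p below 0.05. A standard error is the log2 fold change divided by the square root of F. Ratios of 2 genes were tested by an exact permutation test over all 1680 assignments of the 3 codes (smallest p 0.00357), with Benjamini-Hochberg adjustment over 10 ratios. Levels are given in every library for called members and for a chosen set of chains and subunits, and otherwise as means. The counts and medians cover all 40 members, but 1 of them is not reported here by itself. The 3 genes with the smallest p, or fewer, were given with values for each list of pathway genes. DAG1, FERMT3, FERMT1, COL17A1, COL4A1 and COL4A6, and single markers such as DCN, MFAP5, UPK1B and PSCA, were named after their values were seen. The members and lists, and the classing of integrins as epithelial, muscle or leukocyte, were chosen with earlier results of these data known. Of 6 skeletal muscle markers ACTA1 alone passed the filter, at 4.96 CPM or less. MYH7 and MYL1 were below it, and CKM, MYH2 and TNNT3 had no row under these symbols, which does not show that they were absent. Reads of overlapping genes cannot be told apart. Alternatives were DESeq2 1.42.0 and limma 3.58.1 fits, other scalings and filters, a length correction, a replicate block, subsets of libraries and each library left out.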

Additional observations from a re-analysis of the deposited data

How the results depend on the processing

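All 39 log2 fold changes for single members that were checked kept their sign in each of 21 alternatives, while the calls depended on the setting. Between S9 and S6, 10 of 40 members were called. DESeq2 called 19 (24.0% of all genes) and limma-voom 21 (23.7%), each including the 10, and the 6 libraries with high mitochondrial counts gave 0 (0.0406%). With a library left out the count ran from 0 to 15. For the F test of the 3 groups together the count of 1 became 2 with upper-quartile scaling and 2 with at least 1 CPM in 3 libraries, 19 by DESeq2 (19.3% of all genes) and 13 by limma-voom (13.7%). It was 0 by limma-trend on log2(FPKM + 1), 0 on log2(FPKM + 0.1) and 0 in the 6 libraries, and ran from 0 to 7 with a library left out. Between S7 and S6 the count of 0 became 11 by DESeq2 (8.29%). Between S9 and S7 it was 0 in all alternatives. The causes were not tested, except that fits on fewer libraries have fewer degrees of freedom.

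With a replicate block the count was 0 between S9 and S6, where 17 members had an unadjusted p below 0.05 and 0.0936% of all genes were called, and 0 for the F test. Across genes, the deviations of same-numbered S6 and S7 libraries from their group means correlated at 0.138, 0.132 and 0.0226. Those of S6 and S9 correlated at -0.0649 and 0.127, and those of S7 and S9 at 0.064 and 0.0201. Differently numbered libraries of different groups correlated at -0.178 (S6_2 with S7_3) to 0.103 (S7_3 with S9_4). The values 0.138, 0.132 and 0.127 lay above this range, and the other same-numbered values lay within it. Whether the numbers pair samples was not tested, and the main fit did not use them as pairs. The count of 0 with the block does not measure the size of the differences. Other scalings, filters and the length correction left the count between S9 and S6 at 8 to 10.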

Other observations

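The row matched to ITGA7 by gene ID, a laminin receptor subunit known from skeletal, cardiac and smooth muscle, stood apart from the other muscle integrins. It was at 0.433, 0.0908 and 0.322 CPM in S6, 14.7, 0.292 and 0.790 in S7, and 0.503, 7.70 and 0.503 in S9. S7_2 and S9_2 were the high libraries, and the other 7 lay below 1 CPM, although MYH11 in S9_1 was at 4594 CPM. The skeletal muscle actin ACTA1 was at 0.764 CPM in S7_2 and 4.96 CPM in S9_2. The FPKM ratio of ITGA7 to MYH11 spanned 30.7 times over the 9 libraries, against 1.61 times for ITGA8 to MYH11, with no difference between the groups by an exact test (exact permutation p = 0.536, and 0.0143 with 1 FPKM added to both genes). Of 17102 genes this was the only one for which both S7_2 and S9_2 were more than 5 times above the highest of the other 7 libraries, a rule that was set after its values were seen.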
